A study of Mus musculus with 24 samples.

Results

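The 8 genes Arid1a, Smarca4, Smarcc1, Ino80, Trim28, Smc1a, Smc3 and Rif1, which encode chromatin remodelling, repressor, cohesin and replication timing proteins, were examined in peak lists from mouse embryonic stem cells in mitosis and in asynchronous culture. A peak belonged to a gene when its midpoint lay inside the mm10 gene span or within 20 kb of it, and the 8 genes were picked by name out of 21887 protein-coding genes. By this rule 311 of the 246925 peaks in 16 stem cell lists were found at the 8 genes. Chromatin immunoprecipitation with sequencing (ChIP-seq) had been done for the pluripotency factors Klf4, Oct4 and Sox2 and for H3K27ac, the acetylation of histone H3 that marks active promoters and enhancers. Mitotic cells were collected by shake-off after 7 h of nocodazole, a spindle poison labelled at 100 ug/ml, and asynchronous cells were left without it. Klf4 was profiled in 3 mitotic and 3 asynchronous libraries, Oct4 and Sox2 each in 2 mitotic libraries and 1 asynchronous library, and H3K27ac in 2 mitotic and 2 asynchronous libraries. All cells were the V6.5 line (strain C57BL/6-129), with no mutation or transgene named in the labels. They were kept on irradiated feeder cells and then moved to gelatin with inhibitors of MEK1 and Gsk3, and both states were fixed in 1% formaldehyde for 10 min. The mitotic cells are a drug-arrested population of this 1 line. Of 24 samples, 7 were inputs without a list and 1 was a Klf4 library of 10% stem cells among 90% neural progenitors, whose list of 1334 peaks held 0 at the 8 genes.

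Remodelling complexes use ATP to slide, evict or exchange nucleosomes. Arid1a, Smarca4 and Smarcc1 belong to the BAF complex, which in embryonic stem cells works with Oct4 and Sox2 at enhancers, and Ino80 is the motor of the INO80 complex. Trim28 is a corepressor that KRAB zinc finger proteins bring to retroelements, Smc1a and Smc3 form the long arms of the cohesin ring that holds sister chromatids together and shapes chromatin loops, and Rif1 sets replication timing and acts in DNA break repair. In mitosis most transcription stops and many factors leave the condensed chromosomes, and the comparison asks which sites at these genes remain marked.

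Klf4 peaks at the starts of these genes fell into different classes, and the annotated promoters are shown here for that reason. Each line gives the 250 bases before the annotated start, 5′ to 3′ on the gene's own strand, as listed by RefSeq for GRCm38.p6 (mm10). Capitals mark matches, on either strand, to a Klf-type motif GGGNGTGG or to the GC box GGGCGG. The first, Smarcc1 (chr9:110131774-110132023, plus strand), had a Klf4 peak in 3 mitotic and 2 asynchronous libraries. Smarca4 (chr9:21615919-21616168, plus strand) had one in 0 mitotic and 2 asynchronous libraries. Ino80 (chr2:119477688-119477937, minus strand) had one in 0 mitotic and 3 asynchronous libraries. Smc3 (chr19:53600146-53600395, plus strand) had none in any library.
Smarcc1: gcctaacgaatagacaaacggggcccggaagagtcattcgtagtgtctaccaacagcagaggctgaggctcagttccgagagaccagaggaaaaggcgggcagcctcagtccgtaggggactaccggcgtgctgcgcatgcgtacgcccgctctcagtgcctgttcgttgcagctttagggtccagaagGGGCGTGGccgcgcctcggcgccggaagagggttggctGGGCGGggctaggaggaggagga
Smarca4: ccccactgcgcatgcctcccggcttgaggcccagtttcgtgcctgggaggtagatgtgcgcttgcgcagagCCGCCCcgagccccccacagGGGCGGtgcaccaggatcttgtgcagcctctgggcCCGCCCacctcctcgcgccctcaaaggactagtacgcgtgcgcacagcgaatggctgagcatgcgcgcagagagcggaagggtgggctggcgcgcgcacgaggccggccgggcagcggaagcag
Ino80: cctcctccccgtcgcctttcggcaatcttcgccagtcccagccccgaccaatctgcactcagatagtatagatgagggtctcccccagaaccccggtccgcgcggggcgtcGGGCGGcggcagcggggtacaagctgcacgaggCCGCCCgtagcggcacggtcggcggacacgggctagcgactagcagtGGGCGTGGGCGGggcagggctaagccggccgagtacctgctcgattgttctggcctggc
Smc3: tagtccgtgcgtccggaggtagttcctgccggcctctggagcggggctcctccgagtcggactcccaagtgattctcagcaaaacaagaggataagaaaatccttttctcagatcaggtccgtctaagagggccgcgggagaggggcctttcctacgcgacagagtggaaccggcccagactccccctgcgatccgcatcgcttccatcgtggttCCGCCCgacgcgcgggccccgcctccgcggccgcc
In Ino80 the run GGGCGTGGGCGG holds a Klf-type match and a GC box that overlap. Over the 300 bases that the table gives for each promoter (250 before and 50 after the start), the Klf-type motif was found in 2 of the 7 genes with an entry (Smarcc1 and Ino80) and in 17.7% of all 27025 promoters. A GC box was found in 7 of 7 and in 35.9% of all promoters, and these 7 promoters are rich in G and C, at 58.3% to 72.3% against a median of 52.7% over all. The octamer ATGCAAAT was in 0 of 7 and in 1.77% of all promoters, and the Sox core CATTGT was in 0 of 7 and in 12.8% of all promoters. These matches describe the letters only.

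The peak counts by gene separated members with many factor peaks from members with almost none. Klf4 peaks at the 8 genes numbered 10, 6 and 13 in the mitotic lists and 16, 24 and 22 in the asynchronous lists, 9.67 ± 3.51 against 20.7 ± 4.16 (SD, n = 3 each). The groups did not overlap. The mitotic Klf4 lists were also shorter as a whole, with 5754, 3795 and 8438 peaks against 10575, 21307 and 16455. As a share of its list, the 8 genes took 0.174%, 0.158% and 0.154% of the mitotic and 0.151%, 0.113% and 0.134% of the asynchronous Klf4 peaks, so the lower number in mitosis did not carry over to the share. With all 6 Klf4 lists held to the length of the shortest, the 8 genes had 8.33 peaks per mitotic and 6.33 per asynchronous list, and the direction turned. In the project that held Klf4 in both states (EC-EA-3702), the mitotic list had 13 peaks at the 8 genes and the asynchronous list 22. Read depth was not given, and its part in the list lengths was not tested.

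Oct4 peaks at the 8 genes numbered 4 and 6 in the mitotic lists and 6 in the asynchronous list. Sox2 peaks numbered 6 and 4 in the mitotic lists and 5 in the asynchronous list. For both factors the asynchronous value lay within or at the edge of the mitotic range. H3K27ac peaks went the other way from Klf4, at 54 and 49 in the mitotic and 43 and 43 in the asynchronous lists (51.5 ± 3.54 against 43.0 ± 0.0, SD, n = 2 each), although the mitotic lists as a whole were shorter, with 36526 and 30771 peaks against 47475 and 46491. Most of this difference lay at Arid1a, with 13 and 11 H3K27ac peaks in mitotic and 5 and 5 in asynchronous lists. In no other gene were both mitotic counts above both asynchronous ones. Smarca4 (6 and 3 against 6 and 7) and Smarcc1 (5 and 5 against 6 and 7) did not rise. The 2 H3K27ac states came from 2 projects (EC-DG-3514 for mitotic, EC-DG-3458 for asynchronous), so state and project cannot be told apart for that mark. As a check of the label, H3K27ac stood within 1 kb of an end of 7 of 8 stem cell marker genes in all 4 H3K27ac lists (Pou5f1, Nanog, Sox2, Klf4, Zfp42, Tfcp2l1 and Tdgf1, but not Esrrb). It stood at 1 to 4 of 6 neural progenitor markers and at 0 or 1 of 6 fibroblast markers.

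**Figure D1:**
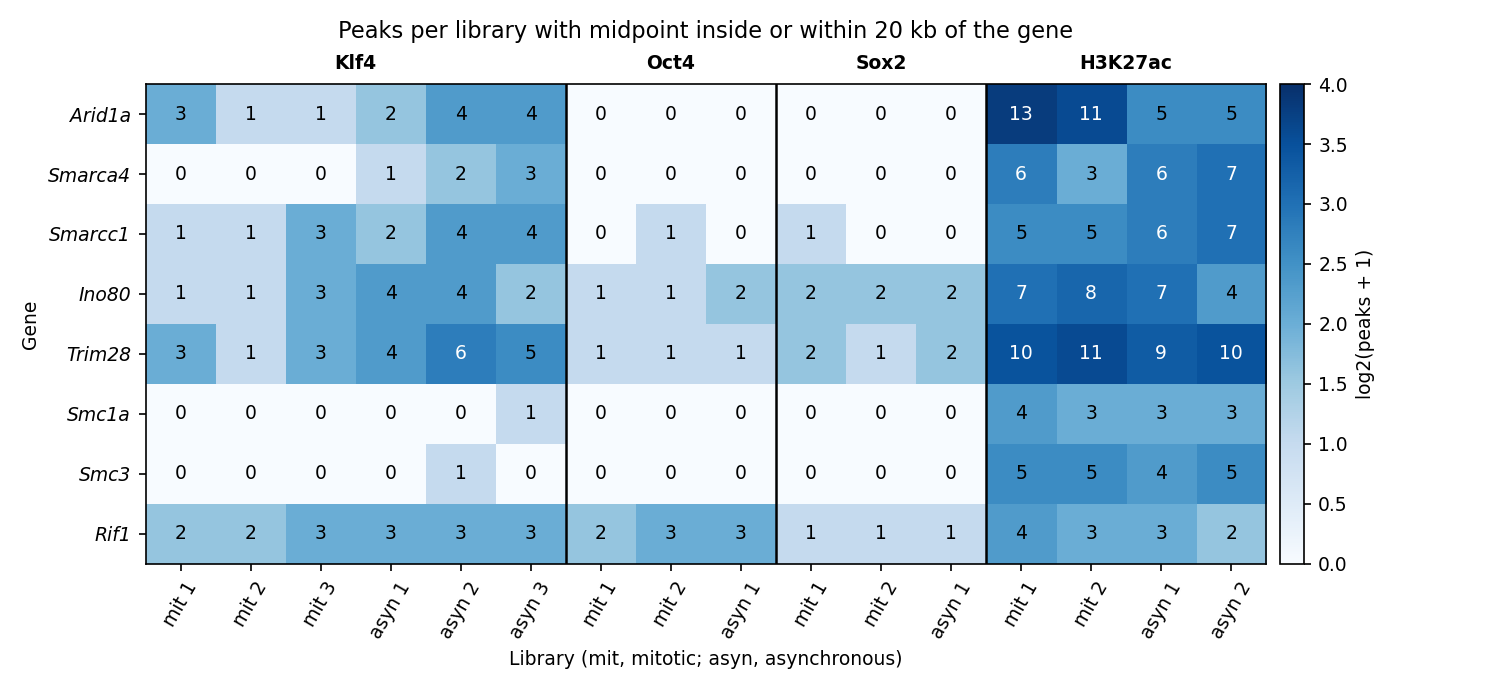
Number of peaks (printed in each cell, colour as log2(peaks + 1)) with a midpoint inside or within 20 kb of each gene (rows) in each of the 16 libraries (columns, grouped by antibody, mitotic libraries left of asynchronous ones). Smarca4, Smc1a and Smc3 had 0 Klf4 peaks in all 3 mitotic libraries, and Arid1a had 13 and 11 H3K27ac peaks in mitotic libraries against 5 and 5 in asynchronous ones.

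By gene, Klf4 peak numbers were compared with a two-sided exact permutation test over all 14804 genes with at least 1 Klf4 peak, in which 3 lists against 3 cannot give a p below 0.1. No gene passed (0 with an adjusted p under 0.05 and 0 with an unadjusted p under 0.05). Smarca4, the catalytic ATPase of BAF also called Brg1, had 0, 0 and 0 Klf4 peaks in mitotic and 1, 2 and 3 in asynchronous lists. Trim28 had 3, 1 and 3 in mitotic and 4, 6 and 5 in asynchronous lists. These 2 genes did not overlap between states (exact permutation p = 0.1, the smallest possible, Benjamini-Hochberg adjusted p = 0.636), and among all tested genes 15.7% were likewise lower in every mitotic list. Arid1a had 3, 1 and 1 in mitotic and 2, 4 and 4 in asynchronous lists, Smarcc1 had 1, 1 and 3 against 2, 4 and 4, and Ino80 had 1, 1 and 3 against 4, 4 and 2. In these 3 genes the states overlapped (exact permutation p = 0.2, adjusted p = 0.770). Rif1 varied least among the genes with Klf4 peaks in every list, with 2, 2 and 3 Klf4 peaks in mitotic lists and 3, 3 and 3 in asynchronous lists (exact permutation p = 0.4, adjusted p = 0.770). The cohesin genes Smc1a and Smc3 had 1 Klf4 peak each over all 6 lists, both in an asynchronous list.

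To follow single sites, peaks of an antibody that shared at least 1 bp were merged over its stem cell lists into regions. A region was in the asynchronous set when 2 of 3 (Klf4), both (H3K27ac) or the single (Oct4, Sox2) asynchronous library listed a peak there. Regions of this set are called kept when at least 2 mitotic libraries had a peak, lost when none had, and intermediate when 1 had. For each peak the authors gave a fold over local background, which is used here only to describe it, since folds of separate lists at unknown depth were not tested against each other.

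At the 8 genes 19 Klf4 regions were in the asynchronous set. Of these, 7 were kept (36.8%, 95% Wilson interval 19.1 to 59.0), against 26.9% of all 13982 Klf4 regions, and 5 were lost (26.3%), against 44.0% of all. The other 7 were intermediate. The interval of the kept share holds the value over all regions. A mitotic list on its own held 9, 6 and 12 of the 19, that is 47.4%, 31.6% and 63.2%, against 30.3%, 18.9% and 44.2% of all Klf4 regions. The counts rested on single libraries: lost regions numbered 10 without mitotic 3, 2 without asynchronous 2 and 1 without asynchronous 3, and kept ones 4 without asynchronous 2, where both libraries left of that state had to have a peak. With lists of equal length, 4 regions were kept and 1 lost, out of 6. A further 10 Klf4 regions were outside these classes, 9 with a peak in 1 asynchronous list alone and 1, at the start of Trim28, with a peak in 1 list of each state.

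Of the 6 Oct4 regions in the asynchronous set, 4 were kept (66.7%, 30.0 to 90.3), against 24.6% of all Oct4 regions, and 1 was lost (16.7%), against 36.2% of all. Of the 5 Sox2 regions, 4 were kept (80.0%, 37.6 to 96.4), against 40.9% of all, and 0 were lost, against 28.4% of all. Mitotic lists 1 and 2 held 4 and 5 of the 6 Oct4 regions, where 25.7% and 62.7% of all Oct4 regions were held, and 5 and 4 of the 5 Sox2 regions, where 69.1% and 43.4% of all were held. These few regions were confined to Ino80, Trim28 and Rif1. Oct4 regions lay close together at Ino80 and at Rif1, and the intervals treat such neighbours as separate. With only 1 asynchronous library for Oct4 and for Sox2, how far another asynchronous library would share these regions could not be measured here.

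Counted by gene, 5 of the 8 had a kept Klf4 region (21.9% of all genes), 3 a kept Oct4 region (3.33%), 3 a kept Sox2 region (4.44%) and 8 a kept H3K27ac region (56.0%). The same 3 genes, Ino80, Trim28 and Rif1, had a kept region of all 3 factors, which 232 of 21887 genes had (1.06%). The window grows with the gene, and the median span was 65.9 kb for the 8 genes and 17.2 kb for all genes, so counts per gene are not on an equal footing.

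The maps of regions along the genes showed the factor peaks in a small number of places. Merging Klf4, Oct4 and Sox2 regions that overlapped gave 31 elements at the 8 genes, of which 25 held 1 factor, 3 held 2 and 3 held all 3. The 3 elements with all 3 factors, 1 each at Ino80, Trim28 and Rif1, were also the only ones with a peak in all 12 factor lists (7 mitotic and 5 asynchronous). At the other end, 10 elements had a peak in 1 list alone and 14 had none in a mitotic list. Of the 31, 24 overlapped an H3K27ac region of the asynchronous set, and 14 lay nearer to an end of another gene than to an end of the member. Klf4 regions of the asynchronous set overlapped an Oct4 region in 5 of 19 (26.3%, against 7.97% of all Klf4 regions), a Sox2 region in 5 of 19 (26.3%, against 7.22%), both in 4 of 19 (21.1%, 8.51 to 43.3, against 3.60%) and an H3K27ac region in 17 of 19 (89.5%, 68.6 to 97.1, against 70.6%). The 4 with both came from the 3 elements with all 3 factors, more than 1 of them from Ino80. The intervals treat such neighbours as separate.

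**Figure D2:**
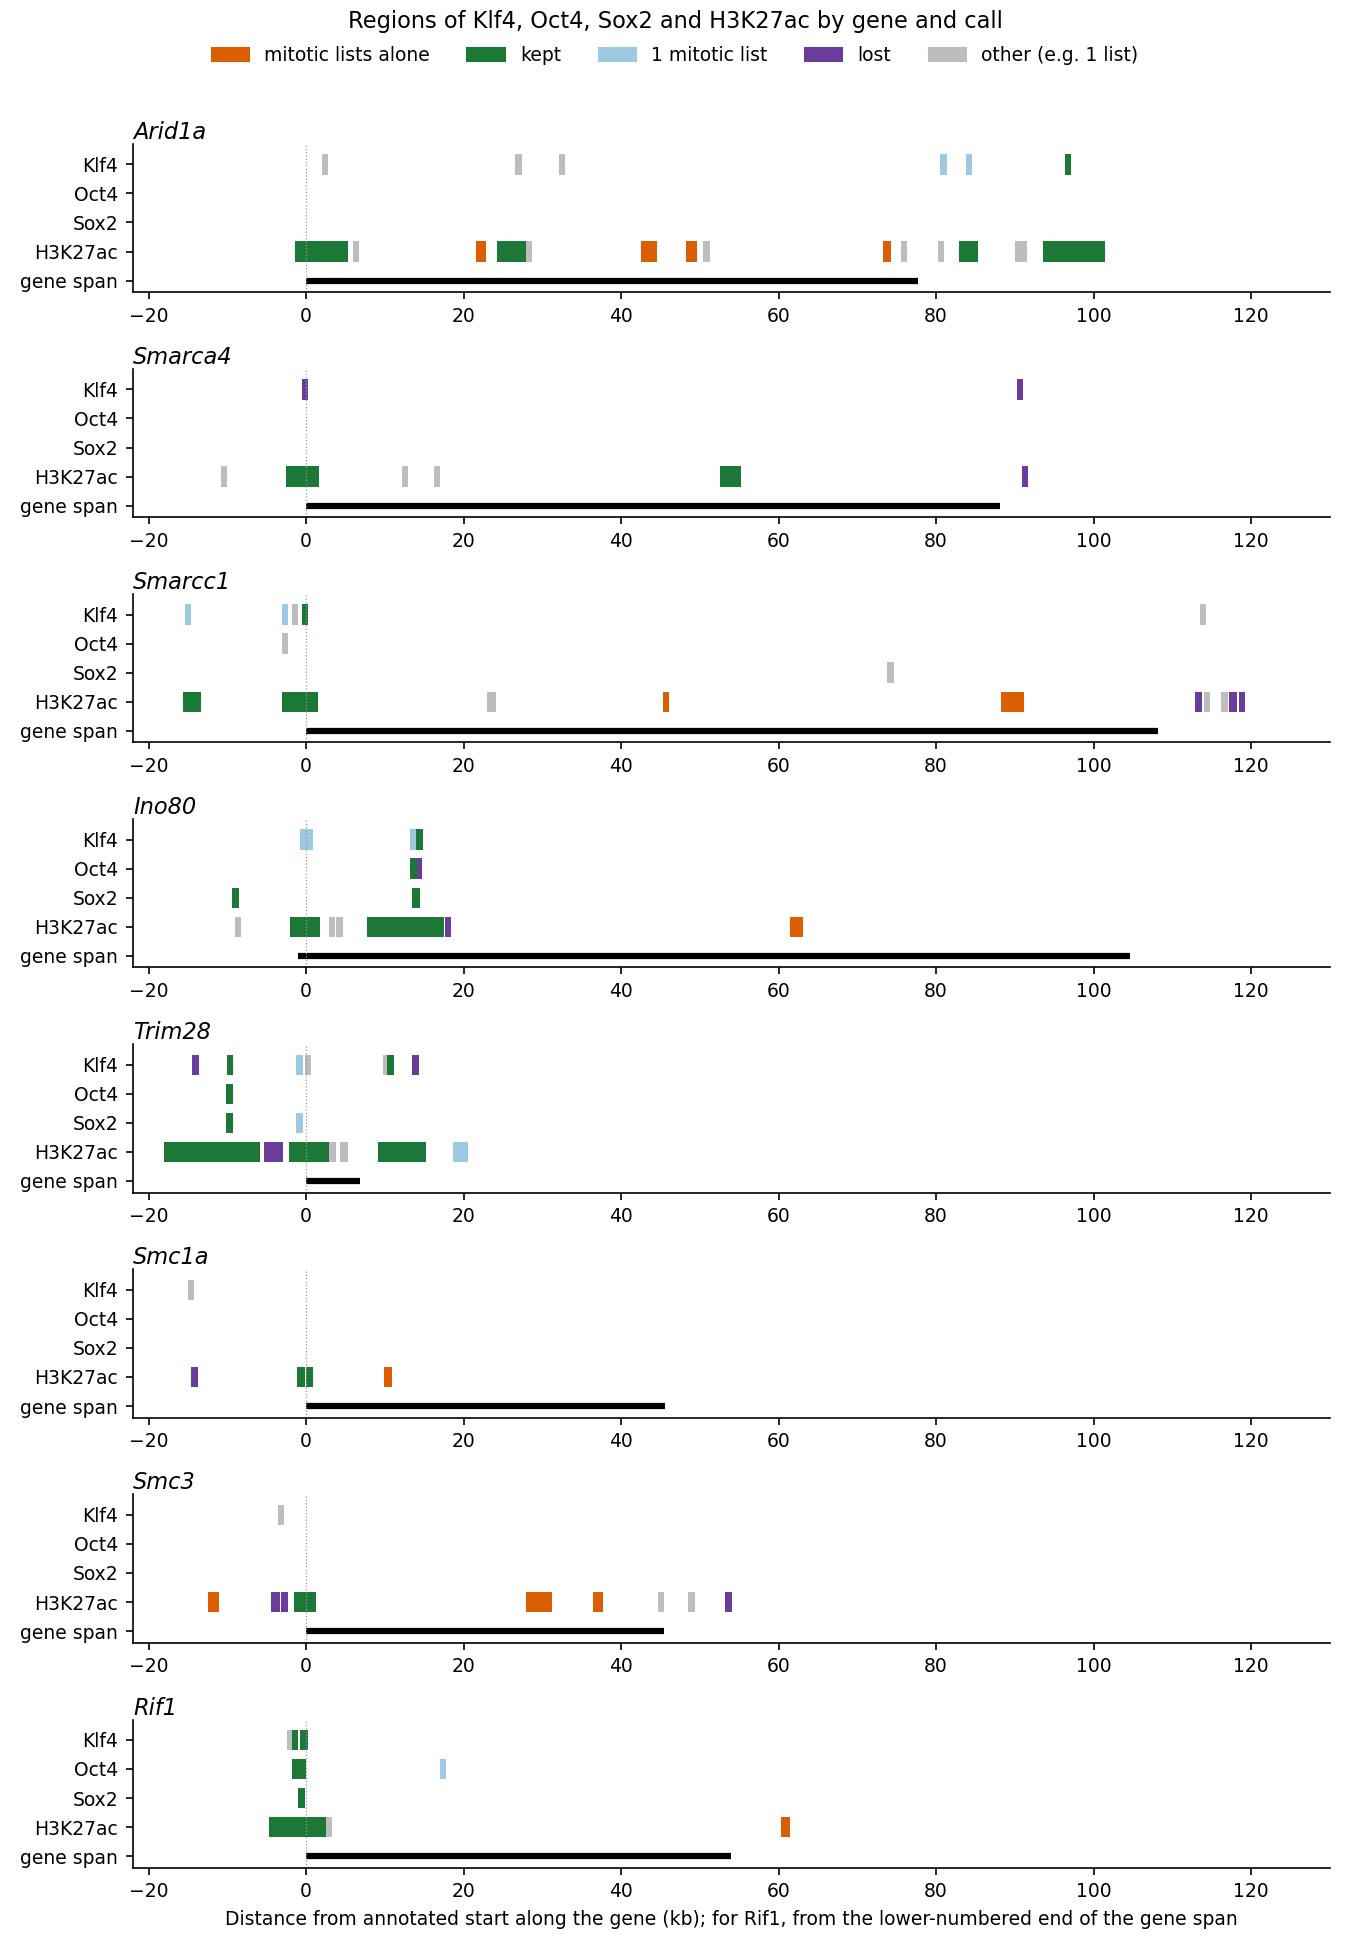
Regions of Klf4, Oct4, Sox2 and H3K27ac along each gene, with the horizontal axis in kb from the annotated start in the direction of transcription (for Rif1, whose strand was not given, from the lower-numbered end). Colours give the call, black bars the gene span, and regions under 0.8 kb are drawn 0.8 kb wide. Kept regions of all 3 factors overlap at Trim28 and Rif1. At Ino80 the kept Klf4 and Oct4 regions lie side by side under a kept Sox2 region. H3K27ac regions seen in mitosis alone lie mostly within the gene spans.

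Rif1 carried its factor sites at the lower-numbered end of the gene. The element chr2:52071904-52072998, which reaches over that end, held kept Klf4, Oct4 and Sox2 regions inside a kept H3K27ac region. Its Klf4 folds were 6.26, 4.72 and 4.75 in mitotic and 19.6, 8.76 and 7.34 in asynchronous libraries. Its Oct4 folds were 8.70 and 15.99 in mitotic libraries and 21.7 in the asynchronous one, and its Sox2 folds were 11.8 and 8.09 in mitotic libraries and 9.49 in the asynchronous one. The Klf4 folds of the states did not overlap, the single asynchronous Oct4 fold was above both mitotic ones, and the Sox2 fold lay between them. A second element at chr2:52071115-52071680 held kept Klf4 and Oct4 regions, with Klf4 folds of 7.70, 6.07 and 10.4 in mitotic and 14.2, 7.80 and 13.6 in asynchronous libraries and Oct4 folds of 6.66 and 4.09 in mitotic libraries and 4.81 in the asynchronous one. An Oct4 region inside the gene (chr2:52090021-52090371) was intermediate, with folds of 6.27 in mitotic 2 and 6.99 in the asynchronous library.

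At Ino80 the shared element lay inside the gene, 14.0 kb from the annotated start (chr2:119462987-119464372). Its kept Klf4 region had folds of 5.29, 6.07 and 9.52 in mitotic and 12.2, 5.58 and 17.1 in asynchronous libraries, and the states overlapped. Its kept Oct4 region had folds of 7.06 and 10.3 in mitotic libraries and 11.6 in the asynchronous one. Its kept Sox2 region had folds of 11.7 and 7.34 in mitotic libraries and 14.2 in the asynchronous one. The element thus held peaks of each factor in every library, with the single asynchronous Oct4 and Sox2 values above both mitotic ones. It also held an intermediate Klf4 region and a lost Oct4 region of fold 4.04, the sole lost Oct4 region at the 8 genes. The kept Klf4 and kept Oct4 regions did not overlap each other. The kept Klf4 region overlapped the lost Oct4 region, and the kept Oct4 region overlapped the intermediate Klf4 region. The kept Sox2 region reached over both places. Further Ino80 sites were a kept Sox2 region upstream, 7.96 kb outside the span (chr2:119486484-119486804; folds of 8.67 and 4.85 in mitotic libraries and 4.39 in the asynchronous one) and an intermediate Klf4 region across the start. This start region, chr2:119476874-119478526, had a Klf4 fold of 3.69 in mitotic 3 and of 7.21, 3.93 and 7.52 in asynchronous libraries. Peaks of 0 mitotic and 3 asynchronous libraries reached the promoter printed above, so the mitotic 3 peak lay in the same merged region but not over that promoter.

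The Trim28 element with all 3 factors lay 9.71 kb upstream of the start (chr7:13014106-13014778), with an end of Zbtb45, a zinc finger gene, nearer to it at 4.40 kb. Its Klf4 folds were 5.80, 5.39 and 10.6 in mitotic and 11.6, 7.90 and 6.96 in asynchronous libraries. Its Oct4 folds were 8.37 and 10.3 in mitotic libraries and 9.64 in the asynchronous one, and its Sox2 folds were 11.9 and 8.99 in mitotic libraries and 11.9 in the asynchronous one. The Klf4 and Oct4 folds of the states overlapped, and the asynchronous Sox2 fold equalled the higher mitotic one to 3 digits. Trim28 has a short span, 6.88 kb, with 5 other genes in its window, and most of its remaining Klf4 regions lay by those neighbours. The region by Chmp2a, an ESCRT gene, was kept (chr7:13034616-13035113; folds of 4.81 and 5.90 in mitotic 1 and 3, and of 3.88 and 2.91 in asynchronous 1 and 2). Those by Zbtb45 (chr7:13009955-13010245) and by Ube2m, the NEDD8-conjugating enzyme gene (chr7:13037864-13038189), were lost, the last with folds of 5.67, 4.41 and 6.18 in the asynchronous libraries. A Klf4 region 0.827 kb upstream of Trim28 (chr7:13023094-13023557) was intermediate, as was the Sox2 region within it.

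**Figure D3:**
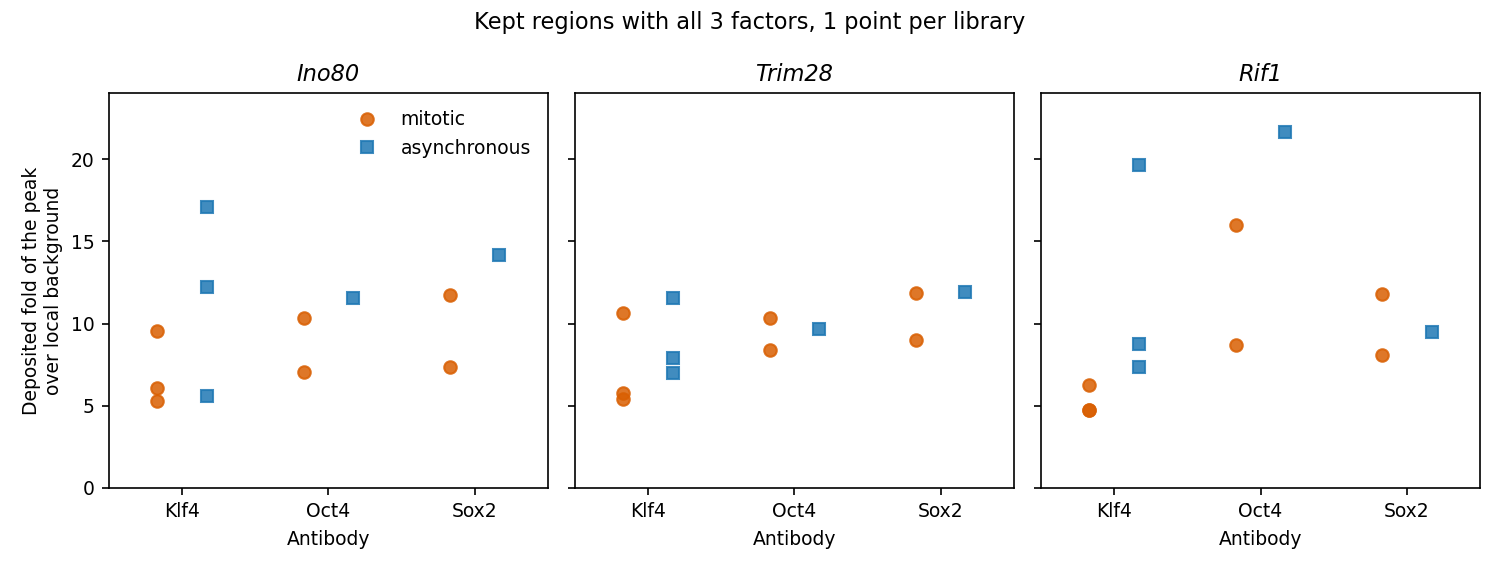
Deposited fold over local background of the kept Klf4, Oct4 and Sox2 regions at the 3 elements that held all 3 factors, 1 point per library, with mitotic libraries (circles) left of asynchronous ones (squares). At Rif1 the 3 mitotic Klf4 folds, 4.72 to 6.26, lie under the asynchronous ones, 7.34 to 19.6, while at Ino80 and Trim28 the Klf4 folds of the states overlap.

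The BAF genes had Klf4 regions without Oct4 or Sox2 in their asynchronous sets, and they differed among themselves. Smarcc1, a core scaffold subunit also called BAF155, had its kept Klf4 region at the start (chr9:110131553-110132168, 0.164 kb upstream), with folds of 5.19, 4.72 and 3.50 in mitotic libraries and of 3.52 and 6.75 in asynchronous 2 and 3. Every mitotic library had a peak there, while asynchronous 1 had none. Its promoter, printed above, is one of the 2 with a Klf-type match. Klf4 regions 2.66 kb upstream and 15.0 kb upstream, the last by Dhx30, were intermediate, each with a peak in mitotic 3 and in all 3 asynchronous libraries. Smarcc1 also had an Oct4 peak in mitotic 2 alone (fold 5.83) and a Sox2 peak in mitotic 1 alone (fold 6.73).

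Smarca4 was the opposite case, with 3 Klf4 regions in the asynchronous set and 0 kept. The region at its start (chr9:21615883-21616175) had folds of 4.57 and 6.51 in asynchronous 1 and 3, and that 2.57 kb past the gene (chr9:21706657-21706939) had 2.60 and 5.52 in asynchronous 2 and 3. No mitotic library had a Klf4 peak at Smarca4, and no Oct4 or Sox2 peak was listed at Smarca4 in any library. Each of the regions was held by 2 of 3 asynchronous libraries. In Arid1a, whose product is the DNA-binding subunit of BAF, the kept Klf4 region lay 19.0 kb past the gene by Pigv, a GPI anchor enzyme gene (chr4:133659714-133660366; folds of 4.81, 4.72 and 7.14 in mitotic libraries and of 4.06 and 4.84 in asynchronous 2 and 3). The other 2 Klf4 regions of the asynchronous set, both by Pigv, were intermediate, and 3 Klf4 regions inside Arid1a had a peak in 1 asynchronous library each. The 20 kb limit passed near some of these sites: just inside it was the kept Arid1a region at 19.0 kb, and just outside was an intermediate Arid1a region at 22.5 kb.

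The cohesin genes stood apart in having no Klf4, Oct4 or Sox2 region in an asynchronous set. For Smc1a the sole factor peak was a Klf4 peak of fold 5.09 in asynchronous 3, 0.132 kb from an end of Hsd17b10 (chrX:152001651-152001877). For Smc3 it was a Klf4 peak of fold 2.99 in asynchronous 2, 3.18 kb upstream of the start (chr19:53597123-53597300). Both genes nonetheless had H3K27ac at the start in every library, as described next.

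H3K27ac was kept in mitosis at an end of all 8 genes, which was the annotated start in the 7 genes with a known strand. The share of all genes with a kept region at an end was not measured. Of all genes with an H3K27ac region of the asynchronous set in their window, 80.4% had a kept one there. Of 29 H3K27ac regions in the asynchronous set 18 were kept (62.1%, 44.0 to 77.3), against 46.1% of all H3K27ac regions, 10 were lost (34.5%), against 39.4% of all, and 1 was intermediate. Mitotic lists 1 and 2 held 18 and 19 of the 29 (62.1% and 65.5%), against 55.7% and 51.0% of all. None of the 10 lost regions covered an end of its gene or had its midpoint within 1 kb of one. Of all links of a lost region to a gene, 14.1% lay at an end in this sense. Inside a span lay 1 of the 10 (Ino80), against 41.7% of all such links. Of the 18 kept regions 9 lay at an end, against 34.2% of all links of a kept region to a gene. Lost regions lay downstream of Smarcc1 on the side of Cspg5 (3), around Smc3 (3) and by Smarca4, Ino80, Trim28 and Smc1a (1 each). Without asynchronous 1 or asynchronous 2, when a peak in the 1 library left sufficed, 19 and 17 were lost, and with lists of equal length 5 were.

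At the start of Ino80 (chr2:119475884-119479751) H3K27ac folds were 20.2 and 18.0 in mitotic and 51.4 and 43.3 in asynchronous libraries. At the start of Smc3 (chr19:53598844-53601639) they were 20.2 and 17.3 in mitotic and 26.0 and 23.8 in asynchronous libraries. Smc1a had 2 kept regions at its start, the stronger (chrX:152016361-152017313) with folds of 5.23 and 8.36 in mitotic and 12.5 and 10.3 in asynchronous libraries. Rif1 had a single kept region (chr2:52068090-52075459) with 16.6 and 18.4 in mitotic and 43.7 and 33.6 in asynchronous libraries. In all of these the mitotic folds were below the asynchronous ones, and the median fold over the whole lists was also lower, at 4.65 and 5.06 in mitotic and 6.03 and 5.95 in asynchronous lists. The start regions of Arid1a (17.0 and 18.7 in mitotic, 29.6 and 32.6 in asynchronous libraries), Smarca4 (15.4 and 12.7 against 23.4 and 21.5), Smarcc1 (17.4 and 17.0 against 29.8 and 29.2) and Trim28 (11.6 and 12.7 against 42.4 and 32.4) followed the same order. How many of all kept H3K27ac regions had this order was not measured. Ranked within its own lists, the Smc3 start had a mean fold percentile of 97.6 in mitotic and 96.5 in asynchronous lists. The other starts ranked lower in mitosis, for instance 97.3 against 98.5 at Arid1a and 92.0 against 99.3 at Trim28.

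Away from the starts, kept regions inside Smarca4 and Arid1a went against the order seen at the starts, while the one inside Ino80 followed it. The Smarca4 region lay 53.9 kb from the start (chr9:21668773-21671382) and had folds of 17.0 and 14.1 in mitotic and 4.70 and 4.16 in asynchronous libraries. The Arid1a region lay 26.1 kb from the start (chr4:133728842-133732531), with folds of 9.01 and 8.94 in mitotic and 7.47 and 6.16 in asynchronous libraries. In both, the mitotic folds were above the asynchronous ones. The Ino80 region (chr2:119460148-119469908), which contains the element with all 3 factors, had folds of 8.43 and 8.62 in mitotic and 22.6 and 22.9 in asynchronous libraries. High asynchronous folds were found away from the starts in the region by Pigv near Arid1a (chr4:133671432-133673878; 14.2 and 12.1 in mitotic and 34.1 and 33.6 in asynchronous libraries) and in that upstream of Trim28 (chr7:13006079-13018356; 14.0 and 13.5 in mitotic and 39.5 and 36.1 in asynchronous libraries), which contains the element with all 3 factors.

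Inside the gene bodies, H3K27ac peaks reached further in mitosis. Over the whole windows the length under H3K27ac peaks was 82.9 and 86.2 kb in mitotic and 88.5 and 83.0 kb in asynchronous libraries (84.5 ± 2.36 against 85.7 ± 3.93, SD, n = 2 each), so the larger number of mitotic peaks did not come with a greater length. Within the gene spans alone it was 44.7 and 47.7 kb in mitotic and 31.5 and 29.9 kb in asynchronous libraries (46.2 ± 2.15 against 30.7 ± 1.10, SD, n = 2 each), a ratio of 1.51. In 6 of the 8 genes, both mitotic libraries had more of the span under peaks than both asynchronous ones, whereas this held for 22.2% of the 14038 genes with an H3K27ac peak in their span and for 25.0% of those with spans of 40 to 120 kb. Over the whole lists H3K27ac peaks covered less in mitosis, 39.5 and 37.7 Mb against 54.1 and 50.3 Mb. Over the 13312 genes with an asynchronous H3K27ac peak in their span the median ratio of mitotic to asynchronous length was 0.740, and over the 8 it was 1.67. With lists of equal length it was again 6 of 8, with a −log10 q of at least 5 it was 5 of 8 while the genes with less of the span under peaks in both mitotic libraries numbered 3 in place of 1, and without any single library it was 6 or 7. With 2 libraries a state no gene was tested on its own, and project cannot be told apart from state.

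Smc3 showed the largest of these ratios, with 4.79 and 5.51 kb of its span under H3K27ac peaks in mitotic libraries and 0.992 and 0.900 kb in asynchronous libraries, a ratio of 5.44. Smarcc1 had 4.82 and 5.07 kb in mitotic and 1.38 and 1.38 kb in asynchronous libraries, a ratio of 3.59. Arid1a had 13.8 and 14.3 kb in mitotic and 6.54 and 6.88 kb in asynchronous libraries, a ratio of 2.09. Smarca4 had 4.11 and 4.12 kb against 2.12 and 2.54 kb, Smc1a 1.07 and 1.49 kb against 0.858 and 0.767 kb, and Rif1 2.64 and 2.98 kb against 2.46 and 2.41 kb. Ino80 was the exception, with 9.90 and 11.5 kb in mitotic and 13.7 and 12.7 kb in asynchronous libraries, and in Trim28 the states overlapped. Around Trim28, counting the 20 kb on either side, mitotic libraries had 17.9 and 19.0 kb under peaks and asynchronous libraries 27.8 and 25.4 kb.

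**Figure D4:**
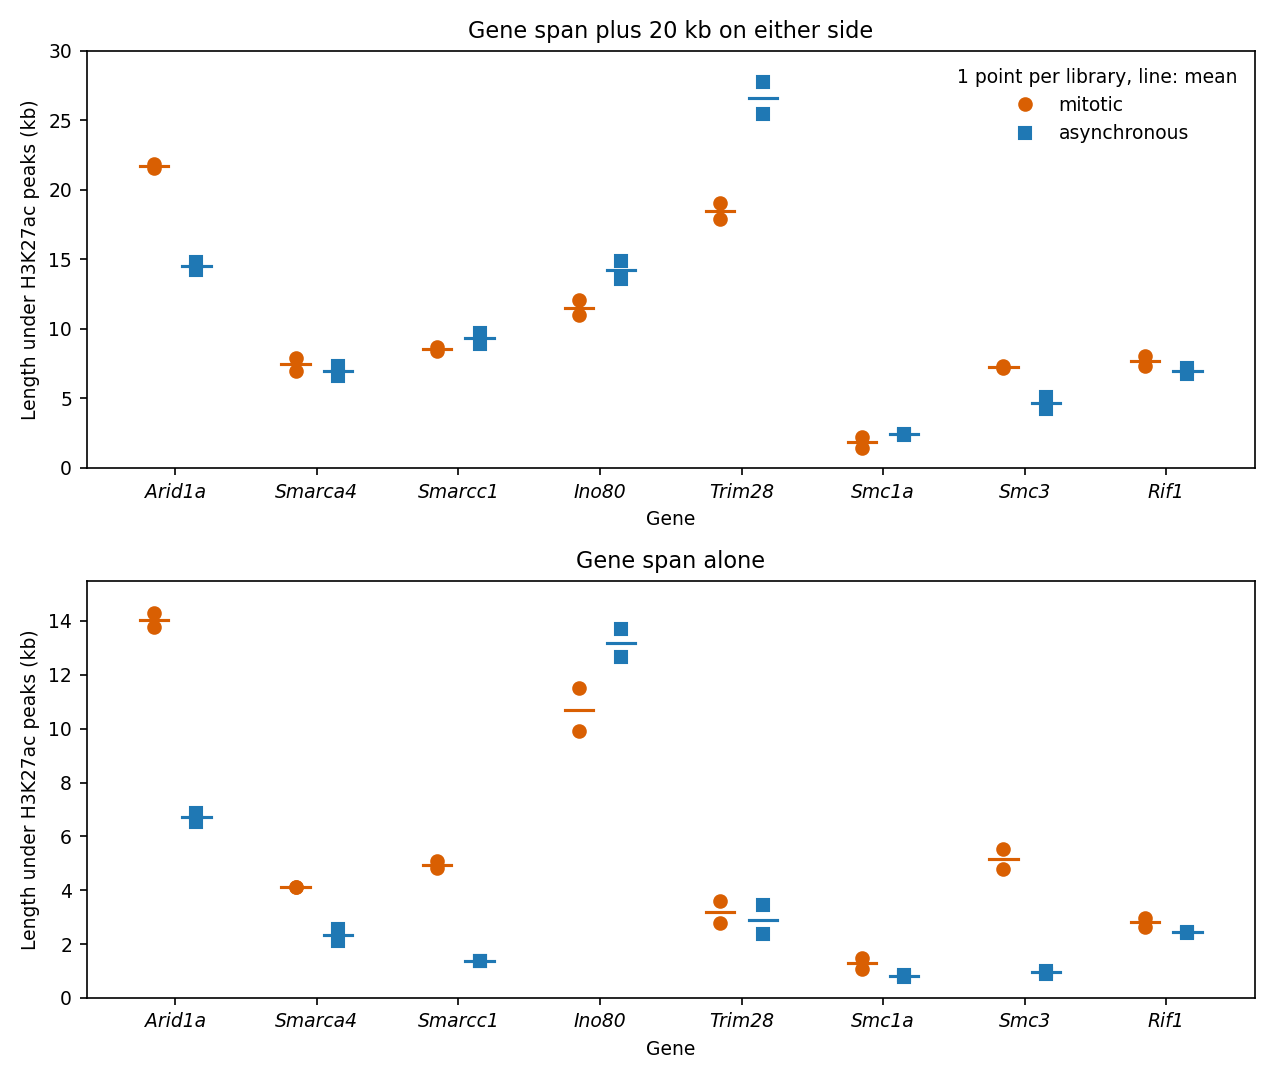
Length in kb under H3K27ac peaks in the gene span plus 20 kb on either side (top) and in the gene span alone (bottom) for each gene, 1 point per library with the mean as a line, mitotic (circles) left of asynchronous (squares). In the gene spans both mitotic points lie above both asynchronous points for Arid1a, Smarca4, Smarcc1, Smc1a, Smc3 and Rif1, and below them for Ino80.

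Part of this length came from regions seen in mitosis alone, with a peak in both mitotic libraries and in neither asynchronous one. There were 12, in 6 of the 8 genes, against 20.9% of all genes with such a region and 29.0% of genes with spans of 40 to 120 kb. Arid1a had 4, Smc3 3, Smarcc1 2, and Ino80, Smc1a and Rif1 1 each. Of the 12, 10 lay inside the gene span (83.3%), against 48.8% of all such links of a region to a gene and 63.7% for genes of 40 to 120 kb. None covered an end of its gene or had its midpoint within 1 kb of one, against 5.74% of all links. The strongest was in Smarcc1 (chr9:110220310-110223145), with folds of 18.9 and 18.6, followed by those inside Smc3 (chr19:53628323-53631559; 16.6 and 15.2) and 11.7 kb upstream of Smc3 (chr19:53587927-53589366; 12.8 and 11.0). The other 9 had folds of 3.75 to 6.69. None of the 12 overlapped a Klf4, Oct4 or Sox2 region, but the share over all mitotic-only regions was not measured. Without mitotic 1 or mitotic 2, when a peak in the other sufficed, 18 and 19 regions were seen in mitosis alone.

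Other genes of the same complexes were taken from 5 lists of 96 genes in all. A kept Klf4 region was found at 37 of the 96 (38.5%), a kept Oct4 region at 9 (9.38%), a kept Sox2 region at 12 (12.5%) and a kept H3K27ac region at 93 (96.9%), beside the values for all genes given above. Lost Klf4 regions with no kept or intermediate one were found at 16 of the 96, and at 3138 of all 21887 genes. The lists differed in factor sites: a kept Klf4 region was found at 11 of 21 BAF and PBAF subunit genes, 12 of 29 genes of ISWI, CHD and NuRD remodellers, 6 of 9 Trim28 and heterochromatin partners, 5 of 18 cohesin and SMC genes and 3 of 19 genes of the INO80, SRCAP and TIP60 remodellers. The differences between lists were not tested. In the last list, 0 genes had an Oct4 region of the asynchronous set (13.6% of all genes had one) and 0 a kept Sox2 region. The Ino80 gene had both.

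Kept regions of at least 2 factors were found at 12 of the 96 genes (12.5%, and 3.53% of all genes). Kept regions of all 3 factors were found at Bicral, a subunit of a non-canonical BAF complex, and Cbx1, which encodes the heterochromatin protein HP1 beta. At Bicral (chr17:46812011-46812862) the Klf4 folds were 7.79, 4.52 and 10.3 in mitotic and 20.2, 11.5 and 18.5 in asynchronous libraries. At Cbx1 (chr11:96795910-96796632) they were 5.29, 5.39 and 8.65 in mitotic and 7.87, 7.77 and 10.5 in asynchronous libraries, and its Oct4 and Sox2 regions lay elsewhere, about 8.34 and 8.23 kb outside the gene. The other 10 were Arid1b, Smarca2 and Ss18 of BAF, Smarcad1, Chd2 and Rbbp7 among remodellers and NuRD, Zfp57, a KRAB zinc finger protein that brings Trim28 to imprinted loci, the H3K9 methyltransferase gene Suv39h1, and Rad21 and Wapl of cohesin. Rad21, the kleisin subunit that closes the ring of Smc1a and Smc3, had a kept Klf4 region 19.7 kb from the gene (chr15:52012825-52013624; folds of 5.63 and 8.40 in mitotic 1 and 3 and of 11.5, 9.92 and 8.08 in asynchronous libraries) with a kept Oct4 region inside it. Wapl, which releases cohesin from chromatin, had kept Oct4 and Sox2 regions within the gene. Smc1a and Smc3 had no factor region in an asynchronous set, but Rad21 and Wapl did. The kept Rad21 regions lay just inside the 20 kb limit.

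Likeness of pattern was measured as the mean absolute difference, over the 16 lists, of log2(1 + the highest fold of any peak in the window), with 0 for no peak. By this measure the list gene most like Arid1a was Ctcf (0.17), and the most like Smarca4 was Dpf2 (0.19). Smc1a was closest to Smarce1 (0.15) and Smc3 to Ino80c (0.15), genes with H3K27ac and hardly any factor peaks. Smarcc1 was closest to Rsf1 (0.37), both Ino80 (0.45) and Trim28 (0.36) to Cbx1, and Rif1 to Bicral (0.49). Among the 8 themselves, Ino80 and Trim28 were the closest pair (0.28), and Rif1 was next to Trim28 (0.32).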

How the data were processed

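Each of the 17 deposited files listed the peaks of 1 library. Per the submitters' processing notes the tools were cutadapt 1.8.1, Bowtie2 2.2.5, deepTools 2.3.6 and MACS2 2.1.1, on mm10. The authors gave each peak a score, its fold (the ratio of signal over local background) and p and q as −log10 values, and kept peaks from a −log10 p of 5 upward. No read counts were given, so the depth behind a fold is unknown, and intervals cover counting error over regions alone. Libraries are numbered in accession order within a group, and whether they came from separate cultures was not stated.

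Computation used Python 3.11.15 with numpy 2.4.6, scipy 1.17.1 and matplotlib 3.10.9, and was checked on simulated data. A region belonged to a gene when 1 of its peaks had its midpoint inside or within 20 kb of the span. Gene spans and promoter sequences came from RefSeq tables for GRCm38.p6, where 7 of the 8 genes had a promoter entry (not Rif1). Exons and introns were not given. No p was computed over the 8 genes. Regions at 1 neighbouring gene enter the counts but are not reported singly or drawn here. Klf4 peaks per gene were compared with two-sided exact permutation tests, adjusted over 14804 genes. Lengths under H3K27ac peaks were cut at the window or span edge, a measure chosen after its values were seen, and the same holds for the count of mitotic-only regions.

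The genes, lists and rules were chosen with earlier results of these data known. Named were the 8 genes, for each antibody the region with the most libraries, all factor regions of the asynchronous set, list genes with kept regions of at least 2 factors, and the most alike list gene. Alternatives were a −log10 q of at least 5, lists of equal length, a 5 kb window, a cover of 25% of the region, leaving out each library, and project EC-EA-3702 alone.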

Additional observations from a re-analysis of the deposited data

Results flagged for a closer look

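Klf4 and H3K27ac peak numbers, summed over the 8 genes, moved in opposite directions, every list included. Most of the H3K27ac difference lay at Arid1a, with 13 and 11 peaks in mitotic and 5 and 5 in asynchronous lists. In no other gene were both mitotic H3K27ac counts above both asynchronous ones. The difference of mean peaks per list, mitotic minus asynchronous, was −11.0 for Klf4 (9.67 in mitotic and 20.7 in asynchronous lists) and 8.5 for H3K27ac (51.5 in mitotic and 43.0 in asynchronous lists). The difference between the 2 antibodies was not tested. For Klf4 the direction turned with lists of equal length, and for H3K27ac state and project cannot be told apart.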

How the results depend on the processing

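Over 103 alternatives of 14 results, 80 stayed within a margin, 22 moved beyond it and 1 reversed. The margin was 1.5 times for counts of regions or genes, and for differences in peaks per list 1 SD between libraries of a state (the larger of the states' SDs), which is wide beside the small Oct4 and Sox2 differences. With lists of equal length the difference in Klf4 peaks per list reversed to 2.0, Klf4 kept and lost regions numbered 4 and 1, H3K27ac lost regions 5, the Sox2 difference was 1.5 and the H3K27ac difference 17.5. With a −log10 q of at least 5, kept regions numbered 2 for Klf4 and 2 for Oct4, and the H3K27ac difference was 4.0. With a 5 kb window, Klf4 lost regions numbered 2, Sox2 kept regions 2 and H3K27ac lost regions 5. Within project EC-EA-3702, where 1 library a state sufficed, Klf4 kept and lost regions numbered 11 and 11. The cause of these moves was not tested.

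Leaving out a library gave 4 to 7 kept and 1 to 10 lost Klf4 regions and differences of −13.3 to −9.17 peaks, 4 to 5 kept and 1 to 2 lost Oct4 regions with differences of −2.0 to 0.0, and 4 to 5 kept and 0 to 1 lost Sox2 regions with differences of −1.0 to 1.0. For H3K27ac it gave 19 to 21 kept, 10 to 19 lost and 12 to 19 mitotic-only regions, differences of 6.0 to 11.0, and 6 to 7 genes with a longer span under peaks in mitosis. The asynchronous Oct4 and Sox2 libraries could not be left out, being single. The test per gene could call no gene under any setting, given its smallest p of 0.1, and is not counted here. No paired analysis was possible because the replicate numbers pair no samples and the counts of regions and peaks come from no test. Depth limits were not measurable, since no read counts were given.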
